A study of Mus musculus with 10 samples.

Results

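The cytosolic ribosomal protein genes were compared between aortae of young and old mice. They were chosen by symbol, as the rows of the deposited count table named Rpl or Rps followed by a digit, with Rplp0, Rplp1, Rplp2 and Rpsa, and without pseudogene names containing -ps, the Rps6k kinases and Rps19bp genes. The rule took 92 of 55453 rows, 55 of the large and 37 of the small subunit. Of these, 77 were core genes, each coding for 1 of the standard ribosomal proteins (46 large, 31 small). The rest were 9 known paralog copies (Rpl3l, Rpl7l1, Rpl10l, Rpl22l1, Rpl36al, Rpl39l, Rps4l, Rps27l and Rps27rt) and 6 further rows of retrocopies and similar copies (Rpl37rt, Rpl6l, Rpl32l, Rps12l1, Rps3a2 and Rps3a3), a grouping made after their values were seen. A count was found for 90 members in at least 1 library, and 84 (49 large, 35 small) passed the filter on low counts and were tested. Of the core genes, 76 were tested, and Rpl24 was the exception.

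Bulk RNA-seq libraries had been made from 10 male C57BL/6 mice, 5 young (14.5 weeks) and 5 old (92.5 weeks), with 1 aorta and 1 library per mouse. The labels name no transgene, allele or treatment in either group, and all aortae had been cleared of the fat around the vessel before RNA extraction. Between 19640401 and 22886153 counts fell on genes in each library. The series was set up to find genes that differ between young and old aortae.

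A ribosome is built from a large and a small subunit, each a scaffold of rRNA carrying many proteins in single copy. Most of these proteins are made from mRNAs that begin with a terminal oligopyrimidine (TOP) tract, a C followed by a run of pyrimidines, through which mTOR signalling and the RNA-binding protein Larp1 control their translation together. Some members have a paralog copy that can take the parent's place in particular tissues, and several free ribosomal proteins are also known to bind Mdm2 and thereby act on p53. In a vessel wall, whose smooth muscle and fibroblasts make contractile and matrix proteins, the level of these mRNAs is commonly read as a measure of the capacity to make ribosomes.

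The sequence around the annotated start shows the TOP tract, and it was read here from RefSeq promoters (GRCm38.p6) for 57 of the 77 core genes. A run of at least 5 pyrimidines beginning with C within 3 bases of an annotated start was present in 23 of the 57 (40.4%), against 13.5% of the 27025 genes with a promoter. The ETS motif core CCGGAAG, on either strand of the 300-base promoter window, was found for 42.1% of the core genes against 9.9% of all genes. The YY1 motif core AAGATGG was found for 15.8% against 7.3%, and TATAAA for 10.5% against 15.7%. These are matches of letters and not mapped starts or bound sites. The windows below run from 30 bases before to 15 bases from the annotated start and are shown for Rps27 and Rpl38 as core genes, for the copies Rps27l and Rpl22l1, and for Fau and Rack1, ribosome components outside the symbol rule. Capitals mark the pyrimidine run, counted from a C within 3 bases of the annotated start. In Rpl38, Rpl22l1 and Rack1 further pyrimidines stand directly before the capitals.
Rps27 (chr3:90213634-90213678, minus strand): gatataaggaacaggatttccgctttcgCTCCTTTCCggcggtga
Rpl38 (chr11:114668550-114668594, plus strand): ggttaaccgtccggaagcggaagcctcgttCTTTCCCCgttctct
Rps27l (chr9:66946056-66946100, plus strand): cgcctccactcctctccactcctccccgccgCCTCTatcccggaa
Rpl22l1 (chr3:28805478-28805522, plus strand): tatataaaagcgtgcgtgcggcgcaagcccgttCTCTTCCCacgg
Fau (chr19:6057917-6057961, plus strand): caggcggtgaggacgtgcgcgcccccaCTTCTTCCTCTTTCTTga
Rack1 (chr11:48800330-48800374, plus strand): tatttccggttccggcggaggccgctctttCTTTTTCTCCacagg
Counted in this way, the run was 9 bases long in Rps27, 8 in Rpl38 and Rpl22l1, 5 in Rps27l, 16 in Fau and 10 in Rack1. The letters TATAAA stand near the start of the Rpl22l1 window.

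Smooth muscle markers were the highest of the marker lists, which fits an aorta. The summed normalized counts of 6 of 6 markers (Acta2, Myh11, Tagln, Cnn1, Smtn, Lmod1) lay between 794522 and 941453 in young and between 733917 and 896083 in old aortae. Normalized counts are counts divided by DESeq2 size factors. The 6 endothelial markers summed to 18905 to 32453 in young and 9719 to 22539 in old libraries, and the 6 macrophage markers to 6636 to 8936 and 8804 to 18141. By edgeR, 3 of the 6 macrophage markers (Cd68, Adgre1 and C1qa) were higher in old aortae, and none of the 6 endothelial markers was called, with 4 at an unadjusted p below 0.05. Of the 7 T cell markers 2 were tested and both (Cd4 and Cd3g) were higher in old aortae, with sums of 17.4 to 51.1 in young and 57.0 to 197 in old, and Cd3e, Cd3d, Cd3g and Trac were each at 0 in at least 1 young library. Of the 6 B cell and plasma cell markers Igkc was higher in old aortae, and their sums were 23.1 to 182 in young and 130 to 1208 in old. Of 6 smooth muscle markers Smtn was higher (log2 fold change 0.29), and of 6 fibroblast markers Lum was higher (0.58) and Col1a1 (-0.91) and Pi16 (-0.58) were lower in old aortae. Of 3 tested striated muscle markers Tnnt2 was higher (1.74), and the other 2 had negative fold changes and were not called. Mean normalized counts in young and old were 293 and 109 for Actn2 and 152 and 126 for Ckm. They were 50.9 and 3.87 for Myh6, which was not tested. Among 5 adipocyte, 4 Schwann cell and 4 erythrocyte markers edgeR called 0, with 3, 1 and 0 at an unadjusted p below 0.05. Over all tested genes 11.5% were called and 26.7% had an unadjusted p below 0.05. The adipocyte markers had a median log2 fold change of -1.003, and in young mouse 1 they stood at 279% of the mean over 10 libraries. The library of old mouse 2 had 11.0% of its counts on the mitochondrial genome, against 4.50% to 6.51% in the other 9. In bulk tissue, fewer cells of a type and less RNA per cell cannot be told apart, and the part of cell composition in the values below was not tested.

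Ribosomal protein genes took overlapping shares of the counts in young and old aortae. The members summed to 2.37% ± 0.107 of counts (SD, n = 5) in young and 2.48% ± 0.213 (n = 5) in old aortae. The young libraries 1 to 5 had 2.52%, 2.29%, 2.44%, 2.26% and 2.36%, and the old libraries 1 to 5 had 2.27%, 2.58%, 2.53%, 2.25% and 2.75%. The groups overlapped, and both the highest and the lowest library were old. The large subunit took 1.34% ± 0.0561 in young and 1.40% ± 0.119 in old, and the small subunit 1.03% ± 0.0511 and 1.08% ± 0.0967. The ratio of large to small subunit counts was 1.298 ± 0.011 in young and 1.294 ± 0.0109 in old aortae, and lay between 1.278 and 1.309 in every library. With the mitochondrial genome left out of the total, the share was 2.50% ± 0.132 in young and 2.66% ± 0.251 in old.

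**Figure D1:**
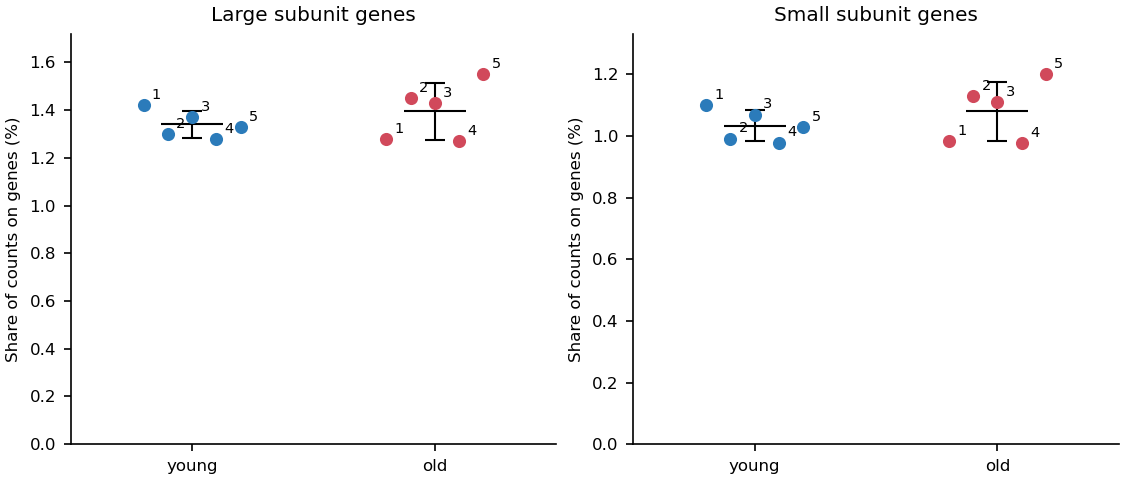
Share of all counts on genes (%) taken by the large subunit (left) and small subunit (right) members in each of 5 young and 5 old aortae. Points are libraries with their replicate number, and black marks are the mean and SD. In both panels old mouse 5 is highest (1.55% and 1.20%) and old mouse 4 lowest (1.27% and 0.978%).

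No single member passed the threshold in either direction. By edgeR's quasi-likelihood test with Benjamini-Hochberg adjustment over 14614 tested genes, 0 of 49 large subunit and 0 of 35 small subunit members passed an adjusted p of 0.05, where 11.5% of all tested genes did (6.48% higher and 4.99% lower in old aortae). At an unadjusted p below 0.05 there were 3 members (Rpl7l1, Rpl22l1 and Rpl10), against 26.7% of all tested genes. DESeq2 called 1 member (Rpl7l1, against 13.0% of its tested genes) and limma-voom 0 (against 11.6%). With sample quality weights, limma-voom called 2 (Rpl22l1 and Rpl7l1, against 18.1%). Leaving out young mouse 1 brought Rpl7l1 to an adjusted p of 0.014 in edgeR, and leaving out old mouse 3 brought Rpl22l1 to 0.0398. Young and old libraries did not overlap for 1 tested member, the retrocopy row Rpl37rt, against 9.92% of all tested genes (5.37% higher and 4.55% lower in old aortae).

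The fitted differences were small and mostly positive. The median log2 fold change, old over young, was 0.028 for the 49 large subunit and 0.043 for the 35 small subunit members, beside 0.003 over all tested genes, and a GC and length correction turned the large subunit value to -0.005. Among core genes 62 were above and 14 below 0, with a range of -0.08 to 0.19, and 7418 of all 14614 tested genes were above 0. The core genes were measured in the same libraries, so that their signs are not independent observations. The standard errors had a median of 0.0669 over the tested members, against 0.101 over all tested genes. The 95% interval of the difference lay inside ±0.3 on the log2 scale (a rise of 23.1%) for 75 of the 84 tested members and for 5527 of the 14614 tested genes. Of the 76 core genes 74 were inside this bound, and Rpl10 and Rps10 reached past it. A difference larger than this bound was therefore outside the 95% interval of nearly every core gene, while smaller ones were not resolved with 5 mice per group.

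**Figure D2:**
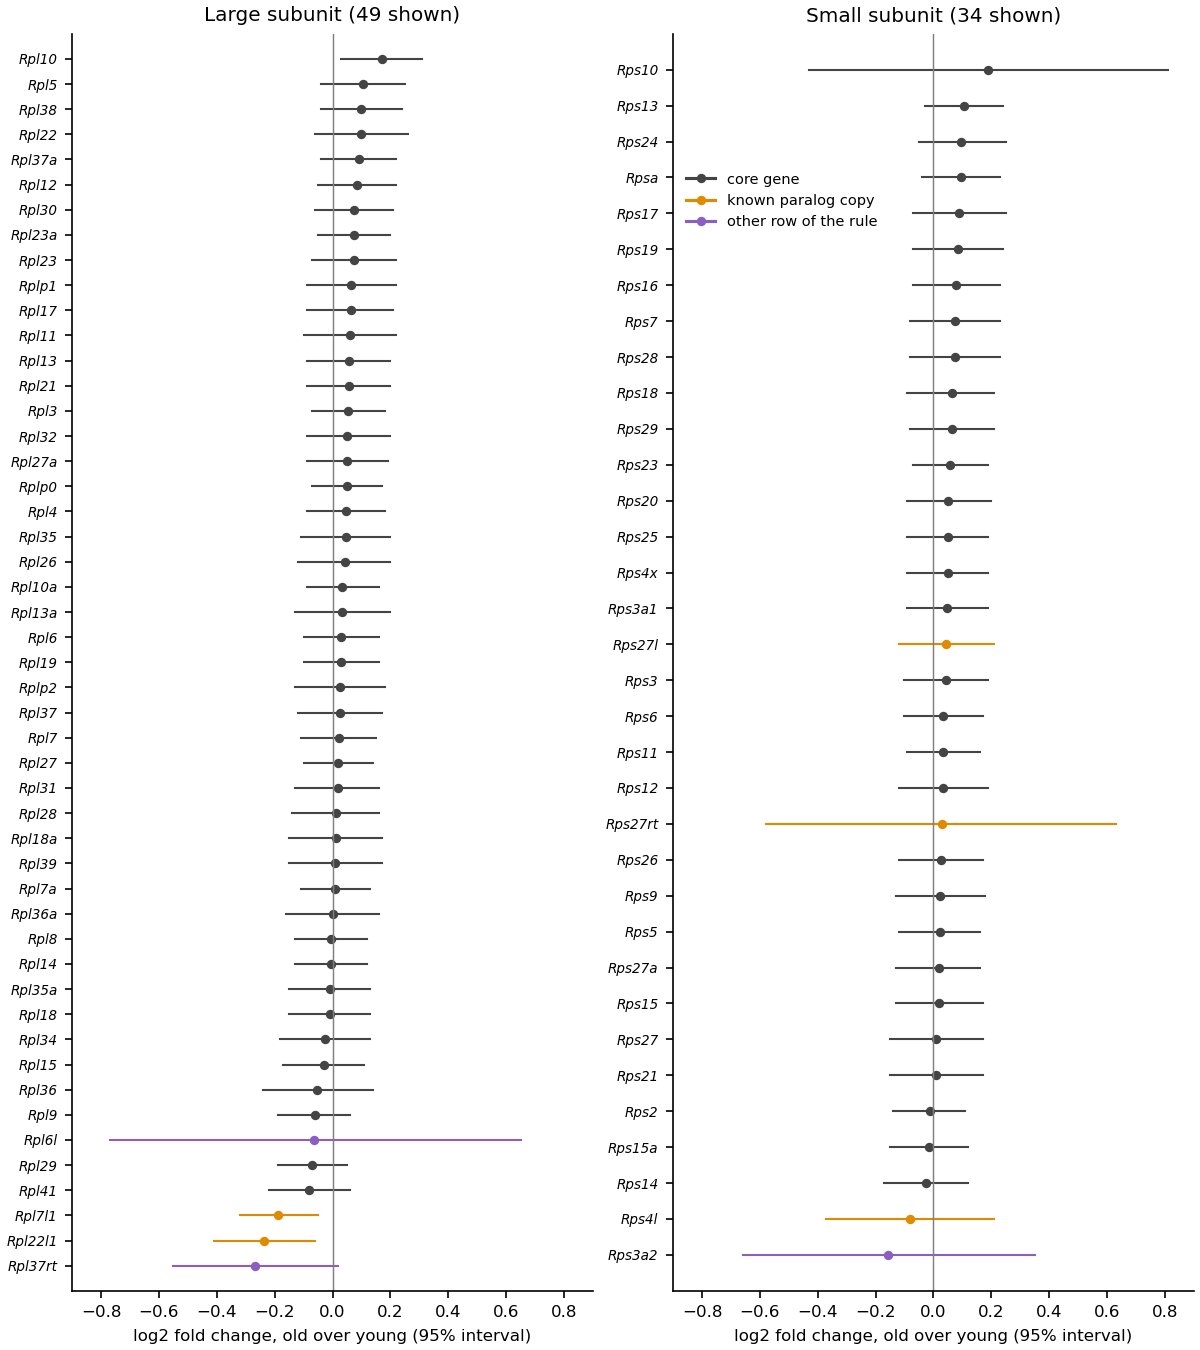
Fitted log2 fold change of old over young aortae (x axis) with its 95% interval for 83 of the 84 tested members (y axis), large subunit left and small subunit right, in order of size. Black is core gene, orange known paralog copy and purple other row; the core genes lie between -0.08 and 0.19, and Rpl7l1, Rpl22l1 and Rpl10 are the members whose interval leaves out 0, none of them called after adjustment.

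Rpl22l1 was the known paralog copy with the lowest fold change. It is a copy of Rpl22, a large subunit protein of the ribosome surface, and loss of Rpl22 is known to raise Rpl22l1. Its gene lies at chr3:28805436-28807424 (GRCm38), and 14.6% of its 50-base windows also occur in another gene or pseudogene. The normalized counts of Rpl22l1 were 1027, 956, 1159, 957 and 996 in young and 739, 901, 979, 818 and 867 in old libraries. Only old mouse 3 reached into the young range. The means were 1019 ± 83.5 and 861 ± 90.0 (SD, n = 5 each), a log2 fold change of -0.24 (SE 0.08, 95% interval -0.41 to -0.06) with an edgeR adjusted p of 0.0782. Over 20 alternative fits this adjusted p ranged from 0.0281 to 0.165, and the call therefore depends on the fit.

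Rpl22 itself had a fitted difference of the other sign. Its normalized counts were 4576, 4296, 4777, 4113 and 4657 in young and 4356, 4845, 4962, 4219 and 5467 in old libraries, a log2 fold change of 0.10 (SE 0.07, 95% interval -0.06 to 0.26, edgeR adjusted p = 0.450). The ratio of a copy to its parent within a library does not depend on how libraries are scaled. Rpl22l1 counts were 22.5%, 22.3%, 24.3%, 23.3% and 21.4% of Rpl22 counts in young and 17.0%, 18.6%, 19.7%, 19.4% and 15.9% in old libraries. Every old library was below every young one, with means of 22.7% ± 1.09 and 18.1% ± 1.65 (SD, n = 5 each). The difference on the log2 scale was -0.33, with an exact two-sided permutation p of 0.00794, the smallest that 5 against 5 libraries can give. This ratio was taken after the values were seen, for 5 pairs of copy and parent, and its p was not adjusted over the pairs.

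Of the other pairs, Rpl7l1 had the next lower ratio in old aortae. Rpl7l1, a nucleolar relative of Rpl7 that takes part in large subunit assembly, stood at 12.1% ± 0.853 of Rpl7 counts in young and 10.4% ± 0.847 in old (exact two-sided permutation p = 0.0238, n = 5 each, groups overlapping). The gene lies at chr17:46773907-46782672. Its own normalized counts were 1393, 1643, 1627, 1594 and 1630 in young and 1462, 1255, 1381, 1350 and 1439 in old libraries. Young mouse 1 lay below the other 4 young libraries and inside the old range. The log2 fold change of Rpl7l1 was -0.19 (SE 0.06, 95% interval -0.32 to -0.05, edgeR adjusted p = 0.0683, range over alternatives 0.014 to 0.137), while Rpl7 had 0.02 (SE 0.06). Rps27l, a small subunit copy known as a p53 target, stood at 14.9% ± 1.53 of Rps27 in young and 15.3% ± 1.29 in old (exact permutation p = 0.635, n = 5 each). Its log2 fold change was 0.04 (SE 0.08, 95% interval -0.12 to 0.21), beside 0.01 (SE 0.07) for Rps27, which codes for a zinc-binding small subunit protein.

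**Figure D3:**
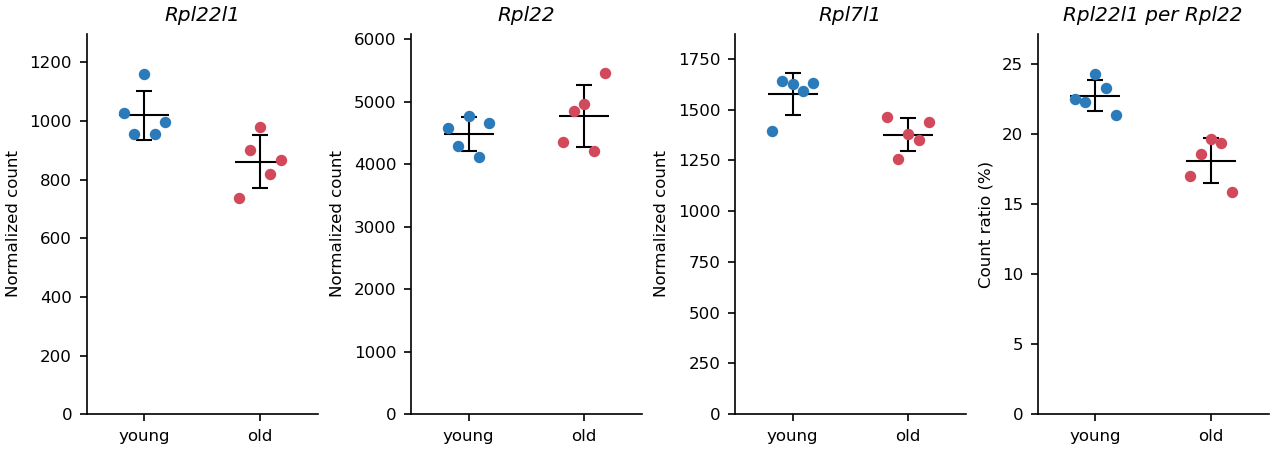
Normalized counts of Rpl22l1, Rpl22 and Rpl7l1, and Rpl22l1 counts as a percentage of Rpl22 counts, in 5 young and 5 old aortae (points, with mean and SD in black; all axes start at 0). The ratio panel is the one without overlap, 21.4% to 24.3% in young against 15.9% to 19.7% in old.

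Rps4l and Rps27rt were counted at low levels. Rps4l, a copy of the X-linked Rps4x, had means of 178 ± 21.2 in young and 168 ± 29.1 in old (log2 fold change -0.08, SE 0.13, against 0.05, SE 0.07, for Rps4x), and was 1.09% and 1.01% of Rps4x counts (exact permutation p = 0.516, n = 5 each). Rps27rt, a retrocopy of Rps27, had 37.3 ± 8.72 and 37.8 ± 14.6, and 91.1% of its windows occur elsewhere, so that its counts cannot be assigned to it alone. It was 0.469% of Rps27 counts in young and 0.467% in old (exact permutation p = 1.0, n = 5 each). Rpl3l, Rpl10l, Rpl39l and Rpl36al had few counts or none. Rpl3l, the striated muscle copy of Rpl3, had 2 counts over the 5 young and 2 over the 5 old libraries, beside a mean normalized count of 9980 and 10311 for Rpl3 (log2 fold change 0.06, SE 0.06). Rpl10l, expressed in testis, had 0 counts in all 10 libraries, which allows up to 3 counts in each. Rpl39l, also best known from testis, had 8 counts over the young and 21 over the old libraries, and 10 of the 21 were in old mouse 5 (exact permutation p = 0.238, n = 5 each). Rpl36al had 40 and 39 counts, and 24.5% of its exonic bases lie under another gene on the same strand, so that its count should not be read as its mRNA level. Their parents Rpl39 and Rpl36a had log2 fold changes of 0.01 (SE 0.07) and 0.00 (SE 0.08).

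Among the large subunit core genes the highest fitted change was that of Rpl10, an X-linked gene (chrX:74270812-74273135) whose protein joins the subunit late and is needed before the subunits meet. Its normalized counts were 10533, 10736, 11166, 10606 and 11534 in young and 11247, 12435, 12803, 11307 and 13372 in old libraries. Old mice 1 and 4 lay within the young range, and the other 3 above it. The log2 fold change was 0.17 (SE 0.06, 95% interval 0.03 to 0.31), with an edgeR adjusted p of 0.101 that stayed between 0.0617 and 0.225 over the alternatives. Rpl5, which carries the 5S rRNA together with Rpl11 and binds Mdm2 when free, followed with 0.10 (SE 0.07, adjusted p = 0.353 by edgeR). Rpl38, known for its part in translating Hox mRNAs, had 0.10 (SE 0.07, adjusted p = 0.373 by edgeR).

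At the low end of the large subunit stood, beside Rpl22l1 and Rpl7l1, the row Rpl37rt, with normalized counts of 123, 94.6, 97.7, 96.6 and 98.4 in young and 93.9, 79.5, 69.0, 88.7 and 89.4 in old libraries. All old values were below all young ones for Rpl37rt. Its log2 fold change was -0.27 (SE 0.13, edgeR adjusted p = 0.213), and 38.5% of its 50-base windows occur in another gene or pseudogene, so that its counts are uncertain. Rpl37, its parent, had 0.03 (SE 0.07). Rpl41, whose product is a very short basic peptide, had -0.08 (SE 0.07, 95% interval -0.22 to 0.06).

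The fitted changes of the 31 small subunit core genes were read from the highest down. Rps13 had the second highest fitted change, 0.11 (SE 0.06), with means of 2961 ± 50.2 in young and 3171 ± 294 in old (edgeR adjusted p = 0.314). Rps24, mutated in some families with Diamond-Blackfan anaemia, had 0.10 (SE 0.07, edgeR adjusted p = 0.408). At the low end stood the rows Rps4l, given above, and Rps3a2. Rps3a2 had -0.16 (SE 0.23) from 23.2 to 45.1 normalized counts per young library, and 90.2% of its windows occur elsewhere. Rps10 had the highest value, 0.19 (SE 0.29, 95% interval -0.43 to 0.81), but from 17 to 42 counts per library.

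Of the ribosome components outside the symbol rule, Fau, which codes for a ubiquitin-like fusion to Rps30, had a log2 fold change of 0.06 (SE 0.06). Rack1, the scaffold for signalling proteins on the small subunit, had 0.02 (SE 0.06). Neither was called by edgeR (adjusted p = 0.586 and 0.896).

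Levels per length showed which of these counts stand apart. The normalized count per kilobase of the shortest principal transcript, over all 10 libraries, had a median of 7343 for the 46 large and 8785 for the 31 small subunit core genes. The highest were Rplp1 (28698), which codes for an acidic stalk protein, Rpl41 (15569) and Rpl4 (14622) in the large subunit, and Rps27 (22969), Rps15 (21148) and Rps29 (20472) in the small. Rplp1 thus stood at 3.91 times its subunit's median. The log2 fold changes of these top genes were 0.07 for Rplp1, 0.05 for Rpl4, 0.02 for Rps15 and 0.06 for Rps29 (SE 0.06 to 0.07).

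Of the core genes, 3 lay far below their subunit's median: Rpl24 (6.14 per kilobase), Rps10 (31.6) and Rpl13a (360). All 3 had 20% or more of their exonic bases under another gene on the same strand in GENCODE M21 (47.0% for Rpl24, 20.6% for Rps10 and 35.4% for Rpl13a), whereas 14.5% was the highest share among the other core genes. The genes over Rpl24 and Rpl13a, Gm28037 and Gm45713, had 0 counts in all 10 libraries. Whether reads in shared exons were discarded was not tested, since the counting options are not given in the sources used here, and the levels of these 3 genes should not be read as mRNA abundance. The next lowest core genes, Rps15a (942 per kilobase) and Rps20 (1817), had 0.0% and 1.7% of their exonic bases under another gene on the same strand. Their principal transcripts were 5130 and 3706 bases long, and a level per kilobase depends on that length.

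**Figure D4:**
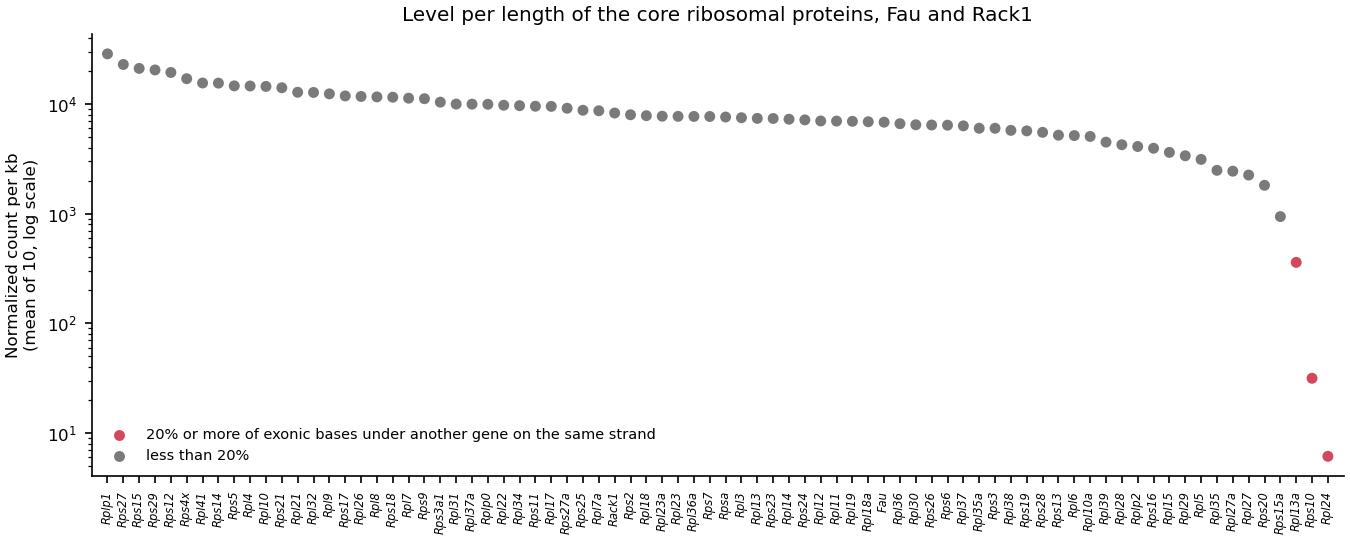
Normalized count per kilobase, mean of 10 libraries on a log axis, for 76 of the 77 core genes with Fau and Rack1, in falling order. Red points have 20% or more of their exonic bases under another gene on the same strand: Rpl13a, Rps10 and Rpl24, the lowest 3.

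The core genes differed more between old mice than between young mice, and they did so together. For the 75 core genes with a mean normalized count above 100, the coefficient of variation (SD over mean) had a median of 3.99% among young and 8.82% among old libraries. It was larger in the old group for 74 of 75 (98.7%), against 50.6% of all tested genes (medians 10.8% and 10.9%) and 51.5% of the 4223 genes with a mean of at least 1000 (7.26% and 7.39%). For instance Rps13 had 1.70% in young and 9.29% in old, Rps29 1.86% and 9.13%, and Rpl3 1.65% and 7.14%. The 75 genes were measured in the same libraries, so that these counts are not independent observations, and no test was made of them.

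The same old libraries were high or low for nearly every gene. Old mouse 5 was above the gene's own mean over 10 libraries for 75 of 75 core genes, old mouse 2 for 68 and old mouse 3 for 65, whereas old mouse 1 was above it for 0 and old mouse 4 for 1. The young libraries 1 to 5 were above it for 47, 19, 47, 9 and 44. In log2 units the median deviations of the old libraries 1 to 5 were -0.08, 0.08, 0.05, -0.13 and 0.15, and those of the young were 0.01, -0.03, 0.01, -0.08 and 0.00. Old mouse 5 was the highest of the 10 libraries for 61 genes and old mouse 4 the lowest for 45. With 1 old mouse left out at a time, the median coefficient of variation in the old group was 7.21% to 9.95%, lowest without old mouse 5, and above the young value for 70 to 74 of the 75 genes. Without old mouse 2, which had the high mitochondrial share, it was 9.38%.

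**Figure D5:**
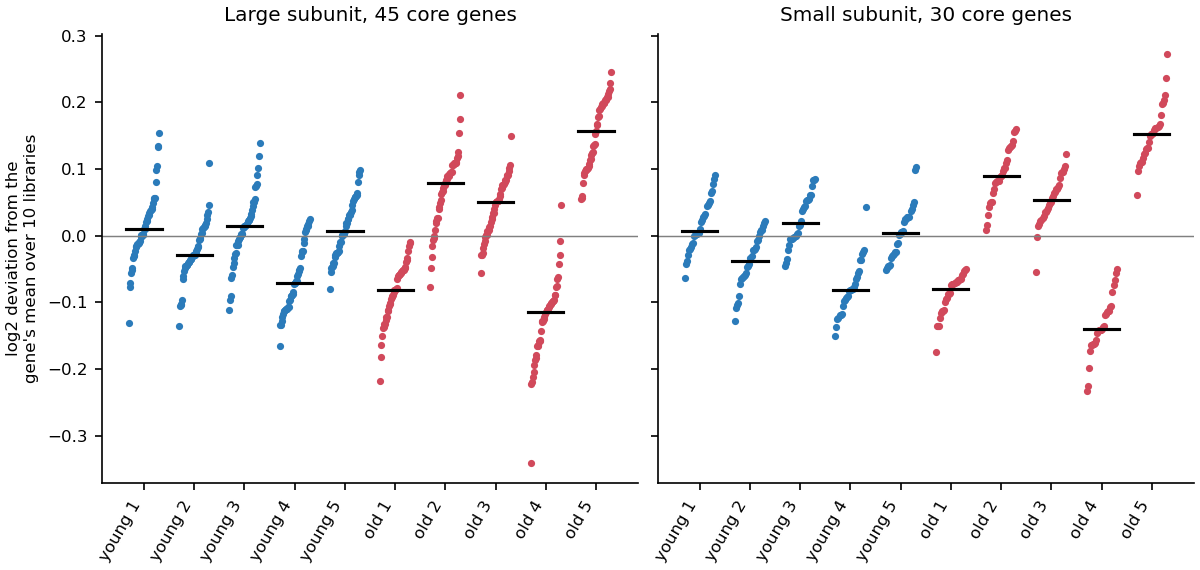
Deviation of each core gene from its own mean over 10 libraries (log2 of normalized count, y axis) in each library (x axis), 45 large subunit genes left and 30 small subunit genes right; points are genes and black lines medians. The young medians lie between -0.08 and 0.02, and those of the old libraries spread wider, with old mouse 4 lowest and old mouse 5 highest in both panels.

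Marker sums were set beside the member sums of each library. As a percentage of the mean over 10 libraries, member sums in the old libraries 1 to 5 were 94.3, 105, 103, 91.6 and 111. The macrophage markers stood at 97.6, 109, 187, 113 and 90.6 and the T cell markers at 82.8, 163, 286, 125 and 117 in the same libraries. Old mouse 3 had the highest level of both marker lists and a member sum of 103, and old mouse 5, with the highest member sum, had the lowest macrophage sum of the old group. Mitochondrial transcripts were at 109, 182, 85.4, 90.3 and 90.3. The 4 erythrocyte markers stood at 34.7, 193, 82.6, 59.8 and 129 in the old and 155, 98.3, 144, 30.4 and 73.4 in the young libraries 1 to 5, and the member sums in those young libraries were 101, 97.6, 101, 95 and 100. Like the members, the erythrocyte markers were lowest in mouse 4 of the young group, low in old mice 1 and 4 and high in old mice 2 and 5. Unlike the members, they were below the mean in old mouse 3 (82.6 against 103) and low in young mouse 5 (73.4 against 100). Their highest library was old mouse 2 (193), whereas that of the members was old mouse 5 (111). The 4 Schwann cell markers stood at 104, 109, 90.8, 94.8 and 120 in the old libraries, also highest in old mouse 5, and at 149, 81.5, 96.4, 79.2 and 74.6 in the young. The part of any of these in the member sums was not tested.

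Other genes of translation were grouped by role. Of the 18 other genes known for TOP mRNAs (elongation factors and poly(A)-binding protein among them) edgeR called 0, and 1 had an unadjusted p below 0.05. The shares over all tested genes were 11.5% and 26.7%. Their median log2 fold change was 0.037. Their median coefficient of variation was 3.39% in young and 6.96% in old, and their sums in the old libraries 1 to 5 were 96.3%, 102%, 108%, 95.7% and 106% of the mean. Old mice 1 and 4 were thus again the lowest of the old group. In the young libraries 1 to 5 these sums were 94.2%, 101%, 97.9%, 98.1% and 101%. Unlike the members, this list was lowest of all 10 libraries in young mouse 1, where the member sum was 101%. It was highest in old mouse 3 (108%), whereas the members were highest in old mouse 5 (111%). For the 42 initiation and elongation genes the coefficient was 6.24% in young and 5.38% in old.

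Of these 42 genes, 1 passed as higher and 3 as lower in old aortae by edgeR, a count to be read against the 11.5% of all tested genes that were called, and their median log2 fold change was -0.062. Eef2k, the kinase that inhibits elongation factor 2, rose by 0.36 (SE 0.10, adjusted p = 0.038 by edgeR), and old mouse 2 stood at 3862 normalized counts against 2948 to 3077 in the other 4 old libraries. Eif4g2, a scaffold for cap-independent initiation, fell by 0.24 (SE 0.07, edgeR adjusted p = 0.0332). Eif1, which guards start codon choice, fell by 0.23 (SE 0.07, edgeR adjusted p = 0.0493), and Eif2s2, the beta subunit of the factor that brings the initiator tRNA, fell by 0.18 (SE 0.05, edgeR adjusted p = 0.0454). For each of these 4 genes some alternatives gave an adjusted p above 0.05. The count of calls was 8 without young mouse 1 and 0 to 2 without any other mouse, with 0 for young mouse 2, young mouse 4 and old mouse 5.

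Of the 72 ribosome biogenesis genes 2 were higher and 0 lower in old aortae by edgeR, where 11.5% of all tested genes were called, and the median was -0.037. An unadjusted p below 0.05 was found for 14 of them, where 26.7% of all tested genes had one. Imp3, of the complex that processes 18S rRNA, rose from 827 ± 29.5 to 998 ± 108 (log2 fold change 0.28, SE 0.07, edgeR adjusted p = 0.0271), and the groups did not overlap. Nat10, which acetylates 18S rRNA, rose from 570 ± 30.4 to 661 ± 39.6 (0.22, SE 0.06, edgeR adjusted p = 0.0382). The Imp3 call was lost without young mouse 2 or 4 or old mouse 2, 3 or 5. The Nat10 call was lost without any one mouse other than young mouse 1 or old mouse 3. Without young mouse 1, 6 genes of the list were called. Of the 77 tested mitochondrial ribosomal protein genes, Mrpl32 alone was called, lower by 0.27 on the log2 scale (SE 0.08, edgeR adjusted p = 0.0434), and the median was -0.028. This call was lost without any one of young mice 2 to 5 or old mice 2 to 4. The mitochondrial ribosome is a separate particle with its own proteins, and its genes had a median coefficient of variation of 7.28% in young and 8.21% in old.

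Among 24 tested genes of mTOR, Larp1, Myc and p53 control, edgeR called 1 higher and 1 lower, beside the 11.5% called over all tested genes. Trp53, which codes for p53, had 968, 874, 930, 940 and 927 normalized counts in young and 1106, 1096, 1059, 1092 and 1070 in old libraries. Every old library was above every young one, and the log2 fold change was 0.23 (SE 0.05, edgeR adjusted p = 0.00857). Larp4, a protein that binds poly(A) tails and stabilizes mRNAs, fell by 0.35 (SE 0.09, edgeR adjusted p = 0.0212), and this call was lost without young mouse 2 or young mouse 4. The median over these genes was 0.015.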

How the data were processed

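The deposited table holds raw counts per gene, made by the authors from polyadenylated RNA of aortae (TruSeq Stranded mRNA) with fastp 0.20.0 (reads under 35 bases dropped), STAR 2.7.0f and featureCounts of Subread 1.6.4 on GRCm38, according to the methods and the submitters' processing notes. Strand, multi-mapping and overlap settings are not given in the sources used here. Library totals were 19640401 to 22886153 counts.

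The test was edgeR 4.0.16 (quasi-likelihood, TMM, filterByExpr, R 4.3.3) on the counts, without covariates, over 14614 genes. Normalized counts use DESeq2 1.42.0 size factors. Alternatives were DESeq2, limma-voom (limma 3.58.1) with and without weights, other scalings and filters, a GC and length trend, a replicate block and each mouse left out. Exact permutation tests used scipy 1.17.1. The edgeR, DESeq2 and limma-voom fits were tested on simulated counts with known changes, which were larger than the fitted changes of the members. The steps for ratios, coefficients of variation, permutations and levels per kilobase were not simulated. P-values set the difference between old and young against the spread between mice, and none of them tests that spread itself.

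Members and lists were chosen with earlier results of these data known. Named are called members, paralog copies with parents, per subunit the 3 highest per kilobase and the 3 largest and smallest fold changes, Fau and Rack1, and called genes of other lists; Rpl37, Rpl11, Rpl13a and Rpl24 were added after values were seen. Some genes covered by this rule are not reported here. Gene positions, transcript lengths and shared 50-base windows came from GENCODE M21, and promoters from RefSeq GRCm38.p6.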

Additional observations from a re-analysis of the deposited data

Results flagged for a closer look

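Of 92 groups of 5 libraries tested for a value far from the rest, 6 were marked, and chance alone marks about 1 in 20. In the young group, mouse 1 had 123 normalized counts of Rpl37rt against 94.6 to 98.4 in the others. The same mouse had 1393.4 of Rpl7l1 against 1594.3 to 1643.2, and 1353.5 of Eif2s2 against 1523.5 to 1568.7. Young mouse 3 had 20.9 of Rps10 against 26.6 to 28.7. Old mouse 2 had 3861.9 of Eef2k against 2948.2 to 3076.6, and 11.0% of its counts on the mitochondrial genome against 5.19% to 6.51% in the other old mice.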

How the results depend on the processing

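The number of ribosomal protein genes called was 0 in the main test and 1 with DESeq2, 2 with limma-voom and sample quality weights, and 1 with a GC and length trend, and 0 to 1 when each mouse was left out. Of initiation and elongation genes 4 were called. This became 7 with quality weights, 2 with upper-quartile factors, 2 with library size alone, 2 with no low-count filter, 2 with a GC and length trend, 0 at an adjusted p below 0.01, and 0 to 8 with each mouse left out. Of ribosome biogenesis genes 2 were called, which became 7 with quality weights, 1 with no low-count filter, 0 at an adjusted p below 0.01, and 0 to 6 with each mouse left out. The 1 mitochondrial ribosomal protein gene called became 0 with a GC and length trend, with library size alone, with upper-quartile factors, with no low-count filter and at an adjusted p below 0.01, and 0 to 1 with each mouse left out. The 2 regulators called became 1 at an adjusted p below 0.01, and 1 to 3 with each mouse left out. The cause of these changes was not tested.

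The replicate numbers of young and old mice carry no stated pairing, and the correlations of same-numbered libraries were -0.30, -0.074, 0.098, -0.048 and 0.132. With the replicate number as a block, 0 ribosomal protein genes, 1 initiation or elongation gene, 1 biogenesis gene and 0 mitochondrial ribosomal protein genes were called, and the values below for Rpl36a and Rps27rt changed sign.

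Changes of sign were seen for uncalled genes near 0 (log2 scale). With a GC and length trend Rack1 became -0.0024, Rpl36a -0.0071, Rpl39 -0.0048, Rps15 -0.042 and Rps27 -0.023. Rpl36a was -0.0065 with DESeq2, -0.0065 with DESeq2's size factors, -0.0032 with limma-voom, -0.0028 with no low-count filter, -0.0031 with the replicate block and -0.00024 with scaling factors made without mitochondrial and ribosomal protein genes. Rps27rt was -0.024 with limma-voom, -0.048 with quality weights and -0.015 with the replicate block. With each mouse left out Rack1 ranged from -0.0078 to 0.047, Rpl36a from -0.053 to 0.051, Rpl39 from -0.048 to 0.053, Rpl7 from -0.0053 to 0.048, Rps15 from -0.018 to 0.058, Rps27 from -0.03 to 0.055, Rps27rt from -0.14 to 0.17 and Rps4l from -0.15 to 0.017.

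The medians were -0.004 to 0.058 (large) and 0.014 to 0.077 (small) with each mouse left out, and the log2 ratio of shares, 0.063, was 0.022 to 0.095. The ratio of the median coefficient of variation of core genes, old over young, was 2.21, between 1.74 and 2.22 under other scalings and between 1.81 and 2.79 with each mouse left out, alternatives chosen after seeing the data. The log2 ratio of Rpl22l1 to Rpl22, -0.33, was -0.36 to -0.28 with each mouse left out, likewise chosen afterwards. Low counts limit the precision for Rpl24, Rps10 and the copies under the low-count filter, and why they are low was not tested.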

Other observations

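Processed copies of ribosomal protein mRNAs are common in mammalian genomes. In the table, 1088 pseudogenes share at least 1 window of 50 bases with a member, and 451 of them had no count in any library. They took 0.0212% ± 0.00249 of counts (SD, n = 5) in the young libraries and 0.0207% ± 0.0024 (n = 5) in the old ones. Of these, 67 passed the low-count filter and edgeR called 0 of them in either direction, where 11.5% of all tested genes were called. Windows shared with any other gene, on either strand, were also counted, with overlapping neighbours included. Of the 77 core genes 76 had at least 1 such window, with a median of 24.4% of windows and a highest value of 84.0%. That highest value was for Rpl35, with 66.2% of its exonic bases opposite another gene, so these values do not measure sharing with pseudogenes alone.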
